A study of Mus musculus with 2 samples.

Results

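The endoderm transcription factors described here were Gata4, Gata6, Sox7, Sox17, Foxa1, Foxa2, Hnf4a and Hhex. They were taken by name, as every probe for transcripts that carries one of these symbols in the array files, which gave 10 probes for all 8 factors, out of 55681 probes on the array and 25851 genes with a probe well above background. RNA was measured in derivatives of the mouse embryonic stem (ES) line E14Tg2A, strain 129/Ola, on 2 one-colour arrays. One array held EpiSC, epiblast stem cells derived from ES cells. The other held ELA-EpiSC, derived from epiblast-like aggregates (ELA), which ES cells form after serum and LIF are withdrawn. The comparison asks how the route into the epiblast stem cell state is reflected in the RNA. Both groups were kept in a chemically defined medium with N2/B27 lacking vitamin A, 20 ng/mL Activin A and 12 ng/mL FGF2. Each RNA was a pool of 3 sets of experiments on 1 cell line, so there was 1 array per group, no spread between cultures could be measured, and no test was possible. For EpiSC the label of the RNA source speaks of an Argonaute immunoprecipitate, and for both samples it gives the day of LIF withdrawal, whereas title, description and molecule name total RNA of the treated cells, and these were followed.

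The factors belong to several families of DNA-binding proteins. Gata4 and Gata6 are zinc finger proteins that bind GATA sequences, Sox7 and Sox17 are SOX proteins of the F group, Foxa1 and Foxa2 are forkhead proteins that open compact chromatin, Hnf4a is a nuclear receptor, and Hhex is a homeodomain repressor. In the embryo, Gata6 and Gata4 set up primitive endoderm, from which the visceral and parietal endoderm around the epiblast arise, Sox17 and Foxa2 act in definitive endoderm, and Hnf4a drives the genes for secreted proteins of visceral endoderm and liver. EpiSC stand for the epiblast of the implanted embryo, the layer that gives rise to definitive endoderm under Nodal or Activin signals.

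Promoter sequence from RefSeq (assembly GRCm38.p6), the 250 bases before each annotated start, was at hand for 4 of the factors, in 7 windows. It is shown for Hnf4a and Hhex, which are among the 3 factors with the largest differences, and for the windows of Foxa1 and Foxa2 that hold a searched motif. Hnf4a is read from 2 starts 40.3 kb apart. Lines run 5′ to 3′ on the strand of the gene, and capitals mark a match to a motif of an endoderm factor family.
Hnf4a, first start (chr2:163506607-163506856, plus strand): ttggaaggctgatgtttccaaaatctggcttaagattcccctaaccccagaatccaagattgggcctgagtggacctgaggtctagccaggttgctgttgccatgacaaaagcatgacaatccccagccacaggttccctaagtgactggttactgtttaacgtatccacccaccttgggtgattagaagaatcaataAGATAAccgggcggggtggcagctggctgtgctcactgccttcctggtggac
Hnf4a, second start (chr2:163546905-163547154, plus strand): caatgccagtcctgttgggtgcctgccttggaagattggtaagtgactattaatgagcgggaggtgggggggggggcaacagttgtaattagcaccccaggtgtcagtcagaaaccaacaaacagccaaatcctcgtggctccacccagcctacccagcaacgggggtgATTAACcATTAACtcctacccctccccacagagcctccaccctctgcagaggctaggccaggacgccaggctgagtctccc
Hhex (chr19:37434591-37434840, plus strand): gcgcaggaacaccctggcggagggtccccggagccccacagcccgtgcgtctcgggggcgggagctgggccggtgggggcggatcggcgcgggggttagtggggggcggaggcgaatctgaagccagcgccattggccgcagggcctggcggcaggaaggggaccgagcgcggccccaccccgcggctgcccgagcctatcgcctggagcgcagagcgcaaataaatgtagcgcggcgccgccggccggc
Foxa1 (chr12:57546112-57546361, minus strand): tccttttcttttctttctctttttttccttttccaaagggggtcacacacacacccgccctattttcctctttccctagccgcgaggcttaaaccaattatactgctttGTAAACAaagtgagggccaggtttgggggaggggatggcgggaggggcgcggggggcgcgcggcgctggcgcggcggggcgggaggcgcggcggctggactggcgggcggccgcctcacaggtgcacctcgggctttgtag
Foxa2, 1 of 3 windows (chr2:148045465-148045714, minus strand): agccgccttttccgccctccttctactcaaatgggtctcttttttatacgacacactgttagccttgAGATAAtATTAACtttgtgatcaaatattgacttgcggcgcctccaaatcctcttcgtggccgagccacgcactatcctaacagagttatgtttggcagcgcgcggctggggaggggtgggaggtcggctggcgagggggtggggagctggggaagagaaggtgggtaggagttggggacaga

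The motifs searched on both strands included AGATAA for GATA factors and TGTTTAC for FOXA. For these families, close variants of the letters were searched too and counted as the same kind of motif. The others were GTTAAT as the short core of the HNF1 site, CAAAGTC for HNF4 and ACAATG for SOX. TATAAA was searched on the strand of the gene. The first Hnf4a window held AGATAA at 52 to 47 bases before the start. The second held GTTAAT on the opposite strand at 81 to 76 and again at 74 to 69 bases before its start. Hnf4a was read by a single probe that begins at base 4262 of its transcript, so the array does not say which start was used. The Foxa1 window held TGTTTAC on the opposite strand at 141 to 135, and the Foxa2 window shown held AGATAA at 183 to 178 and, on the opposite strand, GTTAAT at 176 to 171. No match overlapped another. Hhex, in a window of 76% GC against a median of 52.4% over all windows, held none of the 6 kinds of motif. Such short motifs are common. Over 32817 windows of the same length, 26.6% held a GATA motif and 9.72% a FOXA motif, variants included. The shares were 6.44% for GTTAAT, 3.84% for CAAAGTC, 10.7% for ACAATG and 7.6% for TATAAA. The shares of AGATAA alone and of TGTTTAC alone were not computed. A match describes letters and is not a bound site.

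Of the 8 factors, 7 had lower RNA in ELA-EpiSC than in EpiSC, with differences of -5.12 to -0.44 on the log2 scale, and Sox7 alone had a higher value. Hnf4a, Gata4 and Hhex were past a difference of 1, that is 2-fold in intensity, and 0 factors were past 1 in the other direction. Genes were counted where their mean level over the 2 arrays reached a log2 of 7.5, which 7 of the factors did and Sox7 did not. Among the 16649 genes that reached it, 4.46% were past 1 and higher in EpiSC and 4.54% past 1 and higher in ELA-EpiSC. The median difference, always log2 ELA-EpiSC minus EpiSC, was -0.93 over these 7 factors and -0.89 over all 8, beside 0.00 over all genes counted, of which 49.8% lay below 0. Where EpiSC cultures hold more or fewer cells of a type, this cannot be told apart in bulk RNA from more or less RNA per cell.

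**Figure D1:**
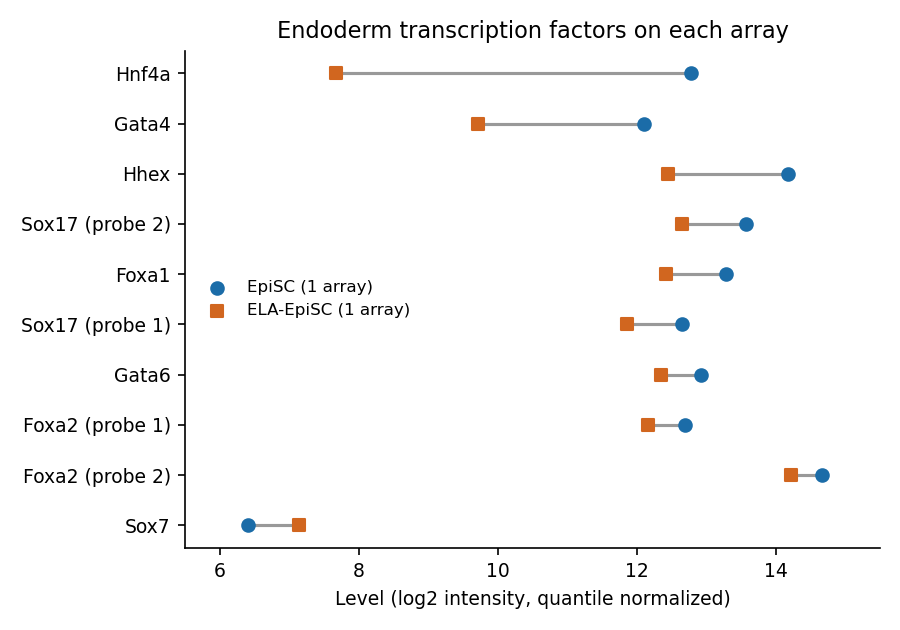
Level of each of the 10 probes on the EpiSC array (circle) and the ELA-EpiSC array (square), as log2 of quantile-normalized intensity, 1 array per group and no error bar; lines join the values of 1 probe. In 9 of the probes the square lies to the left of the circle, by the widest distance for Hnf4a (12.79 to 7.67), and in Sox7 it lies to the right (6.40 to 7.13); levels of different probes are not on a common scale.

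Hnf4a, the nuclear receptor, stood out from the other factors. Its probe (chr2:163398548-163398607, mm9 as in the array files, plus strand) had a mean spot signal of 6458 units in EpiSC over a local background of 28 and of 184 units in ELA-EpiSC over a background of 24. After normalization its log2 levels were 12.79 and 7.67, a difference of -5.12 or 34.7-fold. Both arrays were well above background, so Hnf4a RNA was reduced but still measurable in ELA-EpiSC. The difference was the second lowest of the 16649 genes counted. One yardstick of error is the print: 312 detected probes placed at 10 spots gave a SD of 0.10 for the difference between the arrays from a single spot. The Hnf4a difference was 50.2 times this SD, which covers neither labelling nor culture. The error that the scanner software gives for processed signal was larger, 0.20 to 0.24 for the log2 ratio over the factor probes. Multiples given here are of the spot SD.

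Gata4 followed. Its probe (chr14:63817858-63817917, minus strand) gave a mean spot signal of 3972 units in EpiSC and 896 in ELA-EpiSC. The log2 levels were 12.11 and 9.72, a difference of -2.39 or 5.24-fold, 23.4 times the spot SD. Gata6, which binds the same sequence and acts before Gata4 in primitive endoderm, differed far less. Its spot signal was 7116 units in EpiSC and 5760 in ELA-EpiSC, and its log2 levels 12.92 and 12.36 gave a difference of -0.57, 5.55 times the spot SD. Gata4 thus ranked 119 from the lowest of all genes counted and Gata6 ranked 1914.

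Hhex, the homeodomain repressor of anterior visceral endoderm and of the liver bud, was the other factor past 1. The spot signal of its probe (chr19:37514969-37515028, plus strand) was 17340 units in EpiSC and 6103 in ELA-EpiSC. The log2 levels were 14.17 and 12.45, a difference of -1.73 or 3.31-fold, at rank 238. A strong signal remained on both arrays.

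The forkhead pair differed by less than 1. The Foxa1 probe (chr12:58641764-58641823, minus strand) had log2 levels of 13.28 and 12.42, a difference of -0.86. Foxa2, a factor shared by node, anterior visceral endoderm and definitive endoderm, was read by 2 probes that overlap in part. The brighter (chr2:147868669-147868728, minus strand) had log2 levels of 14.67 and 14.22, a difference of -0.44, and the other (chr2:147868614-147868673) had 12.70 and 12.16, a difference of -0.54. The pair of Foxa2 probes therefore differed from each other by about the spot SD.

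Of the SOX proteins, Sox17 was lower and Sox7 higher in ELA-EpiSC. Sox17, which marks definitive and visceral endoderm, was also read by 2 probes. The brighter (chr1:4481503-4481562, minus strand) had log2 levels of 13.58 and 12.65, a difference of -0.93, and the other (chr1:4481038-4481097) had 12.65 and 11.85, a difference of -0.80. Both probes of Sox17 gave the same direction, at 9.08 and 7.84 times the spot SD. Sox7, which marks primitive and parietal endoderm and early blood vessels, was dim on both arrays. Its probe (chr14:64569419-64569478, plus strand) had a spot signal of 53.5 units over a background of 29 in EpiSC and 120 units over 30 in ELA-EpiSC. The log2 levels were 6.40 and 7.13, a difference of 0.73, which an offset added in background correction compresses at such low signal. Sox7 and Gata4 lie on 1 chromosome, their probes 752 kb apart, and had opposite signs.

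**Figure D2:**
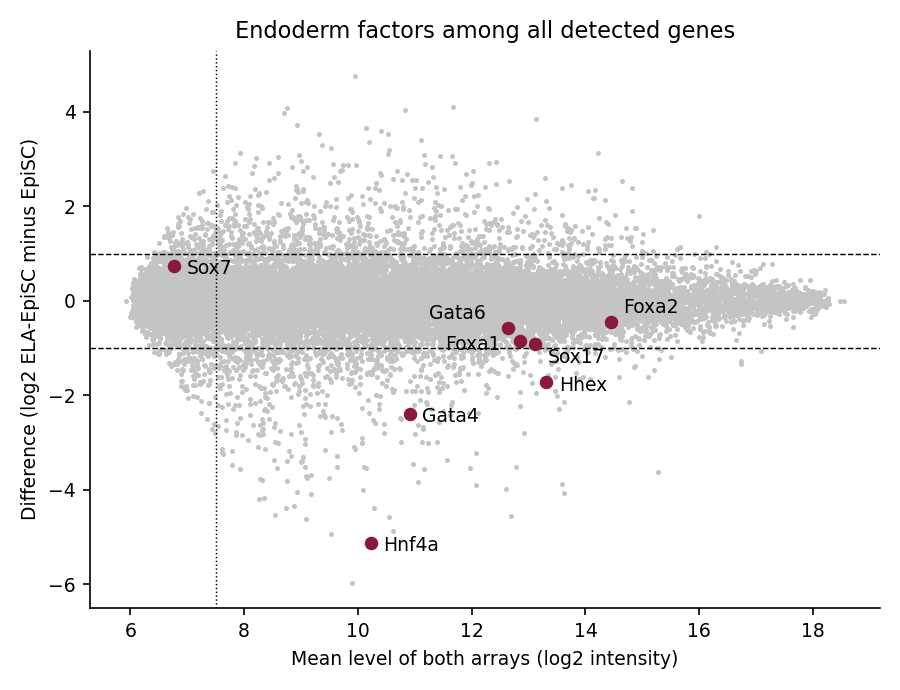
Difference (log2 ELA-EpiSC minus EpiSC) against the mean level of both arrays for every gene detected on at least 1 array (grey, 25851 genes), with the 8 factors as named points; dashed lines mark differences of 1 and -1 and the dotted line the minimum mean level of 7.5. Hnf4a (-5.12), Gata4 (-2.39) and Hhex (-1.73) lie below the lower dashed line, and Sox7 is left of the dotted line.

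Each factor probe was compared in sequence with the probes of other genes. Over its 60 bases, each factor probe matched its best probe of another gene at 51.7% to 56.7% of positions without gaps. No probe of a factor thus had a near-identical partner on the array. The comparison was with other probes only, so cross-hybridization to transcripts of family members was not tested. All 10 probes were printed at 1 spot, were well above background on both arrays, and started between base 1518 and base 4262 of their transcripts.

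The 3 factors past 1 stayed past it under every alternative run. Over 15 alternatives, the difference of Hnf4a ranged from -5.71 to -4.50, that of Gata4 from -2.56 to -1.70 and that of Hhex from -1.87 to -1.10. Sox17 ranged from -0.97 to -0.28, Foxa1 from -0.96 to -0.19 and Sox7 from 0.50 to 1.55. The highest values of the factors other than Sox7 came from setting the 8 detected spike-in probes equal, which read control RNA meant to be added in a fixed amount, which moved the median of all genes to 0.62. Under that scaling 1.54% of genes were past 1 and higher in EpiSC and 20.2% past 1 and higher in ELA-EpiSC, and Gata6 (0.10) and Foxa2 (0.08) turned positive. Relative to the shifted median, Gata6 was at -0.52 and Foxa2 at -0.54. The quantile scaling used here cannot see a shift shared by all genes.

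**Figure D3:**
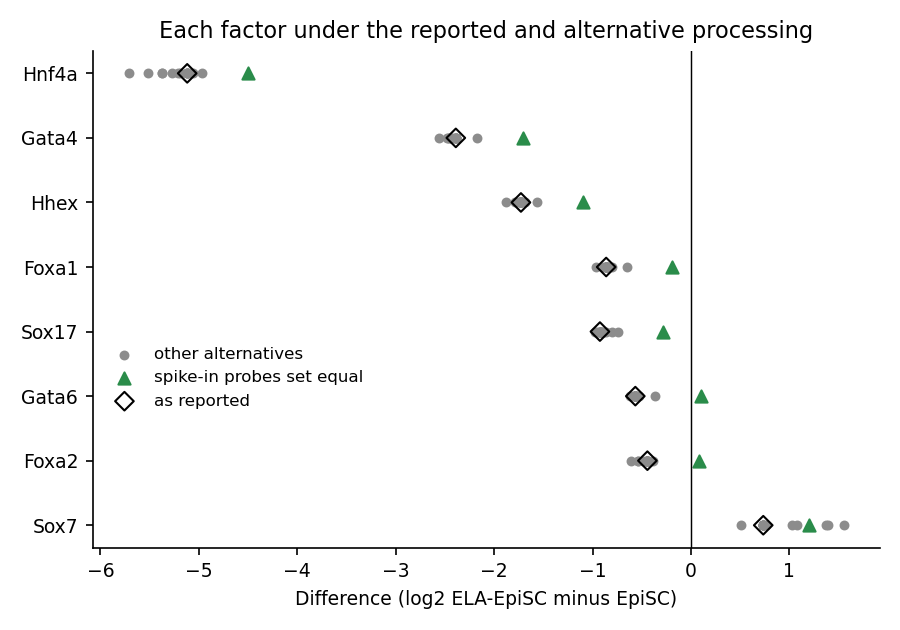
Difference of each factor (log2 ELA-EpiSC minus EpiSC) as reported (diamond), with the spike-in probes set equal (triangle) and under the other alternatives (dots). Hnf4a, Gata4 and Hhex stay below -1 throughout, Gata6 and Foxa2 cross 0 with the triangle only, and Sox7 stays above 0.

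The cell state given by the labels was checked on epiblast markers. All 14 listed were well above background on both arrays. Pou5f1, the pluripotency factor also called Oct4, had log2 levels of 14.27 and 14.46, and Fgf5, a marker of the implanted epiblast, had 15.19 and 15.34. The epiblast list had a median of 0.21, with 4 members past 1 and higher in ELA-EpiSC and 0 in the other direction. These were Zic2 (1.68), Nodal (1.49), Pou3f1 (1.46) and Tdgf1 (1.19, its probes reaching down to 0.45). Of the 14, 4 lay below 0, among them Dnmt3b (-0.84, its probes reaching down to -1.11). The summed level of the list was 18.29 in EpiSC and 18.26 in ELA-EpiSC, with Dnmt3b, its brightest member, at 17.07 and 16.24.

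Relatives of the factors in the same families were lower in ELA-EpiSC in several cases. Of 7 paralogues, 4 reached the minimum level, and 3 of these were past 1 and higher in EpiSC. Gata1, the factor of red blood cells, had a difference of -3.71. Gata3, which acts in trophoblast, differed by -2.56, and Foxa3, the third forkhead of the Foxa group, by -2.19. Gata5, a relative of Gata4 and Gata6 in heart and gut, had 10.53 and 10.32 and a difference of -0.22. The median of these 4 was -2.37, and -2.56 to -1.45 over the alternatives. Gata2 and Sox18 were under the minimum level, and Hnf4g did not rise well above background. The GATA family was thus uneven, with Gata1, Gata3 and Gata4 past 1 and Gata5 and Gata6 not.

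Other regulators of endoderm did not share one direction. Of 26 listed, 24 were detected and 12 reached the minimum level, with a median of 0.16 that fell to -0.01 under both scalings to the 75th percentile. Zfpm1, a cofactor of GATA proteins, was past 1 and higher in EpiSC, at -1.23, with its 3 probes between -1.46 and -0.72. With the spike-in probes set equal, 0 listed regulators were past 1 and higher in EpiSC and 5 past 1 and higher in ELA-EpiSC. Its relative Zfpm2, also a GATA cofactor, was the reverse, at 2.85. Klf5, a zinc finger factor of pluripotent cells (2.5), and Mixl1 (1.97), a homeobox gene of primitive streak and mesendoderm, were also past 1 and higher in ELA-EpiSC. Eomes, which acts upstream of definitive endoderm, had 12.92 and 13.24, a difference of 0.32. Nr1h4 and Nkx2-1 were not well above background, and Pdx1 and Mnx1 were so in EpiSC only, by at least 1.27-fold and 1.09-fold.

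Products of visceral endoderm, many of them known targets of Hnf4a or of GATA factors, were mostly lower in ELA-EpiSC. Of 36 listed, 35 were detected, 21 reached the minimum level and 17 of these lay below 0. Of the 21, 11 were past 1 and higher in EpiSC and 2 past 1 and higher in ELA-EpiSC. The median was -1.14, and -1.47 to -0.50 over the alternatives. With detection required on both arrays, the count of 11 was 9 and the median -0.86. This count was 8 with an offset of 0 and 15 with no filter. Ambp, a secreted protease inhibitor, had 10.80 and 6.27, a difference of -4.53. Spink3, another inhibitor, differed by -3.63, Rbp4, the plasma carrier of retinol, by -3.23, and Vil1, the actin-bundling protein of microvilli, by -2.91. F10, coagulation factor X, was well above background in EpiSC only and at least 18.3-fold higher there. Ttr was also detected in EpiSC only. The list was not uniform. Apoa2, an apolipoprotein, had 11.35 and 11.28, Apob was under the minimum level, and Afp was near background on both arrays, with 6.26 and 6.47. Alb was not well above background on either. Lrp2, an uptake receptor that works with Cubn, was higher in ELA-EpiSC by 1.51, although its second probe gave 0.17, and Serpinf1 by 1.77, its second probe giving 0.95, and from second brightest probes 0 members were past 1 in this direction. In all, 8 members were detected in EpiSC only and 0 in ELA-EpiSC only, beside 4.27% and 3.16% of the 25851 genes detected. Several of the 8 were near background, such as Fabp1 (at least 1.11-fold), Fgb (1.57-fold) and Apoa4 (1.59-fold).

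**Figure D4:**
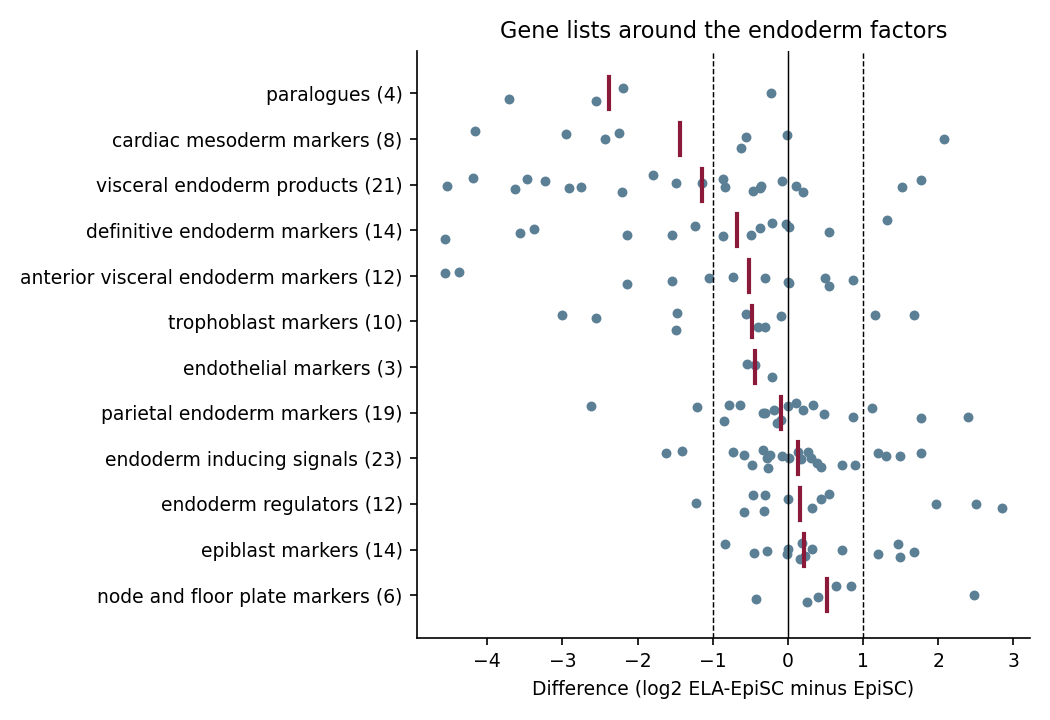
Difference (log2 ELA-EpiSC minus EpiSC) of every member at the minimum level in each of 12 gene lists, 1 point per gene with its vertical place set only to keep points apart; red bars are medians, the number of genes plotted stands in brackets, and dashed lines mark -1 and 1. Points of the paralogues (median -2.37) and visceral endoderm products (-1.14) reach far to the left, while parietal endoderm markers (-0.09) and endoderm inducing signals (0.13) sit around 0.

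Anterior visceral endoderm, the side of the layer where Hhex is expressed, was split in its markers. All 12 listed reached the minimum level, 5 were past 1 and higher in EpiSC and 0 past 1 in the other direction. Sfrp5, a secreted Wnt inhibitor, differed by -4.56, Hesx1, a homeobox repressor, by -4.38, Sfrp1 by -2.15, the Wnt receptor Fzd5 by -1.54, its second probe by -0.79, and Frzb by -1.05. Cer1, the secreted Nodal and Wnt antagonist that is a classical marker there, had 15.55 and 15.56, and Otx2 had 15.86 on both arrays. Of the 12, 7 lay below 0, and Dkk1 (0.87), Gsc (0.54) and Lefty1 (0.49) were higher in ELA-EpiSC by less than 1. The median was -0.52. With the spike-in probes set equal it was 0.15, and the counts past 1 were 3 and 2.

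Definitive endoderm markers showed a like spread. Of 18 listed, 14 reached the minimum level, with 6 past 1 and higher in EpiSC, 1 past 1 and higher in ELA-EpiSC, and a median of -0.68, -0.72 to -0.03 over the alternatives. Beside Sfrp5 and Fzd5, shared with the anterior list, these were Cpm, a carboxypeptidase (-3.57), Pyy, a gut hormone (-3.38), Rab15 (-2.14, its second probe -0.86) and the chemokine receptor Cxcr4 (-1.24). Krt19, a keratin, was higher in ELA-EpiSC by 1.32. Gpr128 was not well above background. Epcam, an adhesion protein of endoderm and of pluripotent cells, had 13.39 and 13.01. Of 190 genes listed in all, 19 were in more than 1 list.

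Parietal endoderm markers centred near 0. All 20 were detected and 19 reached the minimum level, 2 past 1 and higher in EpiSC and 3 past 1 and higher in ELA-EpiSC, with a median of -0.09 that turned to 0.45 with the spike-in probes set equal. Pth1r, the receptor of parathyroid hormone (-2.62), and Srgn (-1.21) were the former, and this count was 1 with an offset of 0 and with the spike-in probes set equal. Fst, which binds Activin (2.40), Pdgfra, the receptor that marks primitive endoderm (1.77), and Snai1 (1.13) were the latter. The laminin chain Lamb1 had 14.90 on both arrays, and Sparc 16.98 and 16.84.

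The signals that induce endoderm lay on both sides of 0. All 23 reached the minimum level, 4 past 1 and higher in ELA-EpiSC and 2 past 1 and higher in EpiSC, with a median of 0.13 that fell to -0.01 with processed signal scaled to the 75th percentile. The 4 were Bmp4 (1.77), Nodal (1.49), Fgf8 (1.31) and Tdgf1, the Nodal coreceptor (1.19), and the 2 were Gdf3 (-1.62) and Fgf4 (-1.41). A second probe of Gdf3 gave -0.68, and probes of Fgf8 and of Tdgf1 each reached down to 0.45. With the spike-in probes set equal the counts were 8 and 0, and from the mean of all detected probes the count of 4 was 2. Smad2, Smad3 and Smad4, which carry the Nodal and Activin signal to the nucleus, had differences of -0.33, -0.27 and 0.31.

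Markers of other cells that use the same factors also differed. Of the cardiac mesoderm markers, where Gata4 and Gata6 act as well, 8 of 15 reached the minimum level, 4 past 1 and higher in EpiSC and 1 past 1 and higher in ELA-EpiSC, with a median of -1.43, and -2.28 to -0.09 over the alternatives. The count of 4 was 2 with an offset of 0 and 1 with processed signal scaled to the 75th percentile. Isl1 (-4.17), Tbx20 (-2.95, its other probes up to -1.68), Myh7 (-2.44) and Nkx2-5 (-2.24) were lower in ELA-EpiSC, Actc1 was higher (2.08), Myl7 was detected in EpiSC only, at least 6.88-fold higher there, and Tbx5 and Mef2c were not well above background. The summed level of the cardiac list was 12.86 in EpiSC and 12.35 in ELA-EpiSC. Of the trophoblast markers, 10 of 15 reached the minimum level, 4 past 1 and higher in EpiSC and 2 past 1 and higher in ELA-EpiSC, with a summed level of 18.18 and 17.92. The count of 4 was 2 with the spike-in probes set equal. Ascl2 (12.88 and 9.88), Gata3 (-2.56), Plet1 (-1.49, its second probe -0.68) and Elf5 (-1.48) were the former and Bmp8b (1.68) and Tfap2c (1.16) the latter. Cdx2 had 6.27 and 6.47, and Tpbpa and Psg29 were not well above background. The part of such cells in the differences of Gata4, Hnf4a and Hhex was not tested.

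Sox7 and Foxa2 are also known outside endoderm. Of 15 endothelial markers, where Sox7 and Sox18 act, 3 reached the minimum level and 0 were past 1 in either direction, though a second probe of Kdr gave 1.49, with summed levels of 15.46 and 15.10. Tie1, Erg and Emcn were not well above background, and Cdh5 had 6.29 and 6.28. Of 11 node and floor plate markers, where Foxa2 acts, 6 reached the minimum level with a median of 0.52, and T, the mesoderm factor also called Brachyury, was past 1 and higher in ELA-EpiSC (2.48), the count of 1 becoming 4 with the spike-in probes set equal. Their summed level was 12.86 in EpiSC and 14.17 in ELA-EpiSC, where T alone had 11.18 and 13.66. Foxj1 was at -0.43, the 1 member at the minimum level that lay below 0. Foxa2 itself was at -0.44. Noto was not well above background. Summed levels of the visceral endoderm products were 17.87 and 16.06. Whether a change in the share of any of these cells contributes to the factors was not tested.

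Genes whose pair of levels lay closest to those of a factor past 1 were sought among all symbols detected, by distance in the plane of the 2 log2 levels. With 2 arrays this likeness says only that level and difference were near. Closest to Gata4 were Ddc, the decarboxylase that makes dopamine and serotonin (12.10 and 9.67, distance 0.05, its second probe differing by -1.10), Car14, a carbonic anhydrase, and Sec14l2. Closest to Hhex were Bloc1s1 (14.13 and 12.55, distance 0.12), Gm7936 and Dpysl3. Hnf4a had more distant neighbours, namely Hesx1 (12.47 and 8.09, distance 0.53), the imprinted RNA H19 (13.05 and 8.18, distance 0.57) and Pilra (12.83 and 8.25, distance 0.59). The probes of H19 and Pilra disagreed, 7 and 4 in number, with the smallest differences at -0.03 and -0.02.

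Genes next to the factors on the chromosome were read from 37 probes within 100 kb of a factor probe, by the mm9 positions of the files. Of these probes, 28 were detected and 18 reached the minimum level, and 3 were past 1 and higher in EpiSC and 0 past 1 in the other direction. Over all genes counted, each by its brightest probe, the shares were 4.46% and 4.54%, and a share over all probes was not computed. Both probes of 9030622O22Rik, a noncoding gene near Foxa2, were among the 3. At 70 kb from the brighter Foxa2 probe, 1 had 9.93 and 8.01, a difference of -1.92, and at 54.1 kb the other had 8.73 and 7.29, a difference of -1.44, which is further from 0 than the difference of either Foxa2 probe. The third was 1010001N08Rik, 36 kb from the Gata6 probe, with 8.23 and 7.16, a difference of -1.07 beside the -0.57 of Gata6.

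The neighbourhoods of the 3 factors past 1 held no such neighbour at the minimum level. Beside Gata4, Neil2, a DNA repair enzyme, differed by 0.08, the protease Ctsb by -0.31 and Fdft1, an enzyme of sterol synthesis, by -0.38. Beside Hhex, the spindle motor Kif11 differed by 0.55, 4933421H12Rik by -0.06 and 2 unnamed transcripts by -0.53 and -0.04. Beside Hnf4a, Ttpal differed by 0.54 and Serinc3 by 0.42 at its brightest probe, with -0.16 at its dimmest. R3hdml, 70.4 kb from the Hnf4a probe, was under the minimum level with 7.94 and 6.84, a difference of -1.11, and the antisense RNA Hnf4aos was detected in EpiSC only, with 6.25 and 6.12. Pinx1 beside Sox7 differed by -0.14. Beside Foxa1, Mipol1 differed by -0.43.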

How the data were processed

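The deposited scanner files hold spot intensity (mean and median pixels, local background, processed signal), made by the authors with Feature Extraction, version 10.7.3.1 per the file headers and 9.1 per the submitters' processing notes. The authors also deposited log2 values, background-corrected and quantile normalized with limma, which were used as an alternative. From mean signal and median background, limma 3.58.1 (R 4.3.3) applied normexp with an offset of 50, left out control and flagged spots (158 in EpiSC, 117 in ELA-EpiSC), quantile normalized and took log2. Detected probes numbered 36645 and 36206, and 0 spots were saturated. A gene took its brightest probe well above background on at least 1 array. A gene detected on 1 array only was set against the higher of its own dim value and the lowest detected level of the other array (6.11 in ELA-EpiSC), as a lower bound. A summed level is log2 of the summed intensities of a list. Named were every probe of the factors, up to 6 members per list by size among those past 1, with some others as examples chosen after their values were seen, the 3 nearest genes, and neighbours within 100 kb. Members and lists were chosen with earlier results of these data known. The fold bound of Ttr and the values of some listed genes are not reported here. Steps were tested on simulated data, and the number of arrays, 1 per group, limits the precision. Alternatives changed background, scaling, spot summary, flags, probe choice, filter, table and thresholds.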

Additional observations from a re-analysis of the deposited data

How the results depend on the processing

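The counts of factors past 1, 3 higher in EpiSC and 0 higher in ELA-EpiSC, were the same under 15 alternatives at that threshold. Sox7, under the minimum level, was left out of these counts except with no filter, where it was at 0.73. The 0 therefore does not cover Sox7, which was itself past 1 in several alternatives given below. At a threshold of 2.5, 1 factor (Hnf4a) was past it, beside 0.649% of genes, and at 1.5-fold 5 were, beside 10.9%. The median difference of the factors was -0.75 with scaling to the median and -0.28 with the spike-in probes set equal, where the median of all genes was 0.62, and otherwise stayed between -0.97 and -0.86. Sox7, the dimmest factor, depended on the offset, with 1.39 at an offset of 0, 1.08 at 16, 1.03 without background correction, 1.55 from processed signal and 1.37 from the deposited log2 values. The causes of these shifts were not tested. No paired analysis was possible because there was a single array for each group, and none could be left out. Low signal over background limits Sox7, Afp, Cdx2 and Hnf4aos.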
